A study of Mus musculus with 8 samples.

Results

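The response of REDD1 knockout (KO) epidermis to a topical glucocorticoid was read from 4 of the 8 arrays of the series, chosen by their sample titles: 2 arrays of REDD1 KO epidermis treated with FA and 2 arrays of REDD1 KO epidermis treated with vehicle. FA is fluocinolone acetonide, a synthetic glucocorticoid used on skin, and the comparison asks which genes still respond to it when REDD1 is missing. REDD1 KO FA mice received 2 µg of FA per animal in 200 µl acetone on the shaved back, and REDD1 KO vehicle mice received the acetone alone. Wild-type FA and wild-type vehicle mice, with 2 arrays each, were handled in the same way. Their arrays show where the KO response differs. They also enter the probe filter and the error estimate behind every KO p-value. All mice were females of 7 weeks with resting (telogen) hair follicles, were shaved 3 days before the application, and gave epidermal RNA 24 h after it. The study's methods also describe an injection of bromodeoxyuridine shortly before the skin was taken. Both KO groups carry the same allele, in which exon 2 of the gene is replaced by a LacZ/neo cassette, in every cell and from conception. The sources disagree on details: the sample labels give the strain as B6D2, the site as posterior ear lobe and the controls as untreated, while the paper describes another C57BL/6 hybrid background and epidermis scraped mechanically from acetone-treated back skin. Each array is 1 RNA sample, described as 1 animal, and p-values measure the spread between these samples.

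Glucocorticoids bind the glucocorticoid receptor, which then moves to the nucleus, switches on a set of target genes through its own binding sites and holds back others that depend on inflammatory factors such as NF-kB. In skin this calms inflammation, but it also slows keratinocyte division and thins the epidermis. REDD1, encoded by Ddit4, is itself induced by glucocorticoids and inhibits the growth kinase mTOR. The epidermis is mostly keratinocytes, but it also holds Langerhans cells, which present antigen on MHC class II molecules, dendritic epidermal T cells, and the hair follicles and sebaceous glands that open through it.

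RNA was measured on the Illumina MouseRef-8 v2.0 BeadChip, and values are log2 signals after the neqc correction of limma, which subtracts the background seen in negative control probes, adds an offset and gives all arrays 1 distribution of signals. Levels of different probes are not comparable with each other. Median intensities of the arrays were 95.9 to 107, close to their negative controls (means of 90.5 to 99.3), and 44.5% to 46.7% of 25697 probes had a detection p under 0.05. The arrays of a group correlated at 0.976 to 0.99 over the 13131 probes that were detected on at least 2 of 8 arrays and therefore tested, and the REDD1 KO FA pair was the lowest. Ddit4 itself had log2 signals of 7.88 and 8.35 in REDD1 KO FA and 7.42 and 7.09 in REDD1 KO vehicle epidermis, with every KO array below every wild-type array (9.16 to 11.14). No source used here places this probe within the gene, so it may lie outside the deleted part and is then no check of the labels.

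The 2 REDD1 KO FA arrays differ in their content of skeletal muscle RNA. Muscle fibers lie outside the epidermis, but some genes of the list, such as Fhl1, are made by other tissues as well. Of 75 muscle genes with a probe, 43 were tested. The summed signal of these 43 genes, on a linear scale, was 57670 on REDD1 KO FA array 1 and 5648 on REDD1 KO FA array 2, against 6438 and 2959 on the REDD1 KO vehicle arrays. FA array 1 thus stood apart from its partner and from all other arrays, since the 4 wild-type arrays lay between 3908 and 9445. As a share of all signal this was 1.03% on FA array 1, 0.101% on FA array 2, 0.115% and 0.0527% on the vehicle arrays. The sum and share of FA array 2 rest largely on Tmod4 and Fhl1, which had log2 signals of 11.56 and 9.83 there and were bright on every array. By the median log2 signal of the 43 genes, the FA arrays had 8.82 and 4.56 and the vehicle arrays 5.60 and 4.54. All 43 genes were detected on FA array 1, but 20 on FA array 2 and 36 and 19 on the vehicle arrays. FA array 1 was above FA array 2 for 42 of 43 muscle genes, with a median difference of 3.43 on the log2 scale.

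The brightest of them were contractile and calcium handling genes of fast muscle fibers. Myl1, a myosin light chain, had log2 signals of 13.14 and 5.38 in REDD1 KO FA and 9.52 and 7.05 in REDD1 KO vehicle epidermis. Acta1, skeletal alpha actin, had 12.91 and 6.08 in REDD1 KO FA and 9.22 and 6.73 in REDD1 KO vehicle epidermis. Pvalb, the calcium buffer parvalbumin, had 12.49 and 4.56 in REDD1 KO FA and 8.52 and 5.03 in REDD1 KO vehicle epidermis. In each case FA array 1 was highest, FA array 2 was lowest, and the vehicle arrays lay between them, so the groups overlapped. The fit called 1 of the 43 genes higher, while the median log2 fold change of the list was 1.40 over all 4 KO arrays, -0.29 without FA array 1 and 2.98, with 37 genes called, without FA array 2.

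In 7 of the 43 muscle genes both FA arrays were above both vehicle arrays, among them the bright Fhl1 and Tmod4. This is a smaller share than the 24.7% of all tested genes for which the same held. Fhl1, a LIM domain protein of muscle that other tissues make as well, had log2 signals of 10.81 and 9.83 in REDD1 KO FA and 8.56 and 7.29 in REDD1 KO vehicle epidermis, a log2 fold change of 2.39 (SE 0.42, adjusted p = 0.0156, limma), and both of its probes passed. It fell short of the threshold without FA array 1 (adjusted p = 0.0669) and without vehicle array 2 (0.0757). Tmod4, a tropomodulin that caps actin filaments, had 11.62 and 11.56 in REDD1 KO FA and 10.39 and 9.98 in REDD1 KO vehicle epidermis. Its FA arrays were alike and above both vehicle arrays, with an adjusted p of 0.0557 in limma. These values are of the brightest of its 3 tested probes. Another of the 3 was called higher, and their log2 fold changes ranged from 1.31 to 1.57. Of 62 probes that were more than 2 log2 units higher on FA array 1 than on FA array 2, 38 belong to the muscle list. Because of this array, many counts below are also given without it.

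**Figure D1:**
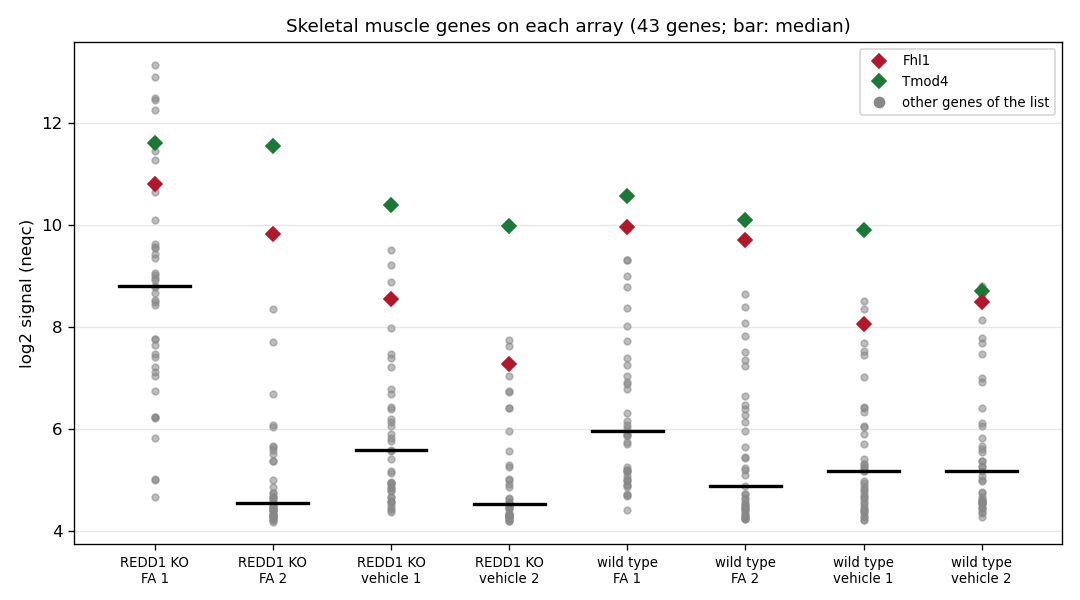
Log2 signal of 43 skeletal muscle genes on each of the 8 arrays, 1 point per gene, with Fhl1 in red and Tmod4 in green and a bar at the median of each array. The median was 8.82 on REDD1 KO FA array 1 and 4.56 on array 2, against 5.60 and 4.54 on the REDD1 KO vehicle arrays, and the wild-type arrays lay between 4.88 and 5.96.

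FA changed a few percent of the measured transcripts in REDD1 KO epidermis, in both directions. With 1 mean per group fitted to all 8 arrays in limma, 285 of 13131 probes were higher with FA (2.17%) and 307 were lower (2.34%) at an adjusted p under 0.05. With 1 probe per gene, this came to 209 of 9343 genes higher (2.24%) and 248 lower (2.65%). Together these were 592 probes (4.51%) and 457 genes (4.89%). In all 592 probes the FA and vehicle arrays did not overlap, which held for 24.7% of all genes upward and 27.1% downward. Separate groups, where mentioned below for called genes, are therefore no further support for a call. The median change of the called probes was 1.09 on the log2 scale upward and 1.14 downward, against median differences of 0.22 to 0.26 between the FA arrays and 0.19 to 0.21 between the vehicle arrays. A change of at least 1 log2 unit was seen in 175 of the higher and 188 of the lower probes.

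The number of calls depended on single arrays. It was 173 higher and 150 lower without REDD1 KO FA array 1, and 244 higher and 198 lower without FA array 2. It was 96 higher and 116 lower without vehicle array 1, and 92 higher and 86 lower without vehicle array 2. Leaving out either wild-type FA array gave 185 higher and 185 lower probes. When arrays were centred on their medians in place of quantile normalization, the median of all probes moved by -0.13 and the split became 169 higher and 404 lower, so that small changes are read here relative to that shift.

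Among the 20 largest rises were enzymes, secreted inhibitors and signaling adaptors, and 14 of the 20 stayed called in all 8 fits without 1 array and 16 without FA array 1. Of the 20 largest falls, 14 stayed called in all 8 fits and 16 without FA array 1. Serpina3n, a secreted serine protease inhibitor of the acute phase, had log2 signals of 10.91 and 10.91 in REDD1 KO FA and 7.96 and 8.22 in REDD1 KO vehicle epidermis. The FA arrays were equal to 2 decimals and far above both vehicle arrays, a log2 fold change of 2.82 (SE 0.378, adjusted p = 0.00477, limma). Hs3st3a1, which adds a sulfate to heparan sulfate chains, had 7.32 and 6.97 in REDD1 KO FA and 4.52 and 4.73 in REDD1 KO vehicle epidermis, a log2 fold change of 2.52 (SE 0.226, adjusted p = 0.00106). Creb5, a leucine zipper transcription factor, had 7.60 and 7.32 in REDD1 KO FA and 5.36 and 5.12 in REDD1 KO vehicle epidermis (log2 fold change 2.22, adjusted p = 0.000779). The groups were well separated for both genes.

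Several of the 20 genes encode metabolic enzymes. Cyp2b10, a cytochrome P450 that clears foreign compounds and steroids, had log2 signals of 11.19 and 11.60 in REDD1 KO FA and 9.04 and 9.33 in REDD1 KO vehicle epidermis (log2 fold change 2.21, SE 0.239, adjusted p = 0.00202, limma). Hpgd, the dehydrogenase that inactivates prostaglandins, had 8.38 and 8.47 in REDD1 KO FA and 5.96 and 6.19 in REDD1 KO vehicle epidermis (2.35, adjusted p = 0.0228). Cdo1, which oxidizes cysteine, had 6.21 and 7.17 in REDD1 KO FA and 4.31 and 4.79 in REDD1 KO vehicle epidermis (2.14, adjusted p = 0.00738). None of these groups overlapped, but Hpgd was called in 4 of the 8 fits without 1 array, while Cyp2b10 was called in all 8 and Cdo1 in 7. Fxyd4, a regulator of the sodium pump, rose by 2.41 (adjusted p = 0.00202), and Vamp1, a vesicle fusion protein, rose by 2.30 (adjusted p = 0.00365). Lims2, an adaptor of integrin adhesions, had 6.89 and 7.58 in REDD1 KO FA and 5.01 and 4.60 in REDD1 KO vehicle epidermis (2.43, adjusted p = 0.00202). Ly6c1, a surface protein of monocytes and endothelial cells, had 9.41 and 7.97 in REDD1 KO FA and 6.47 and 6.12 in REDD1 KO vehicle epidermis (2.39, adjusted p = 0.0115). It was higher on the FA array with the muscle signal, as were all 10 tested endothelial genes, and the part of vessel RNA in its rise was not tested.

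**Figure D2:**
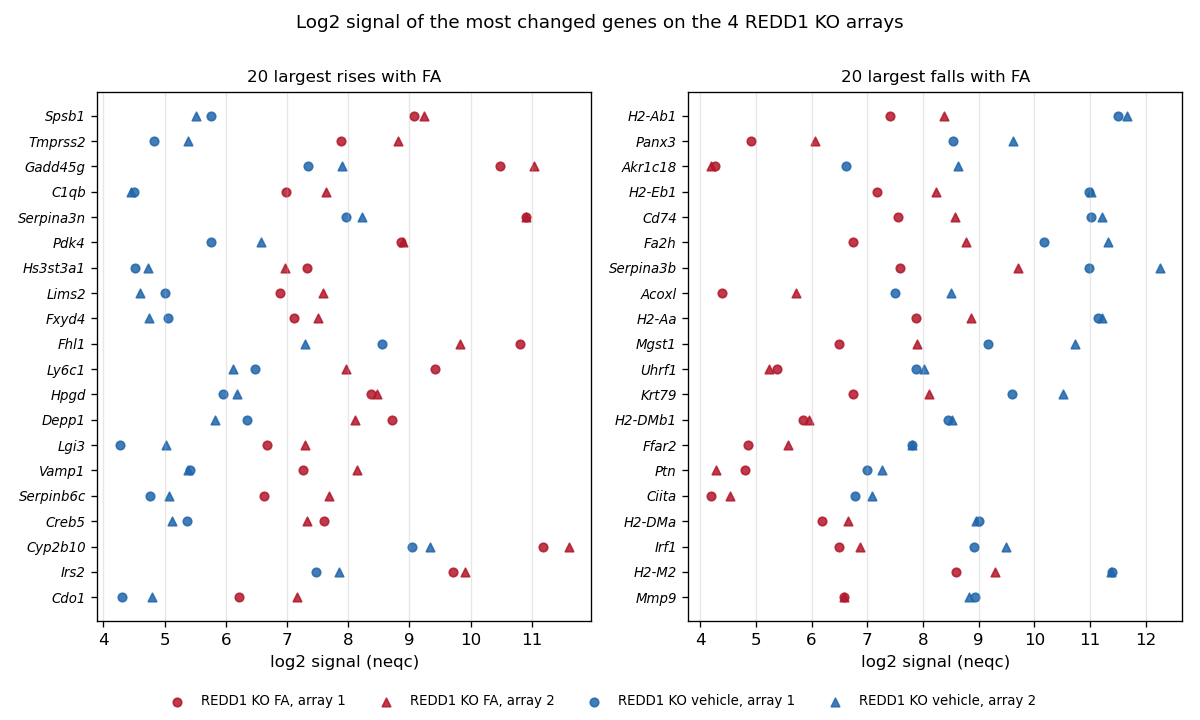
Log2 signals on the 4 REDD1 KO arrays of the 20 genes with the largest rise (left) and the 20 with the largest fall (right) among called genes, FA in red and vehicle in blue, array 1 as circles and array 2 as triangles. Cd74 is drawn with its more changed probe. The genes were chosen among called probes with separate FA and vehicle arrays, so red and blue points are apart in every row. The FA arrays of some falls, such as Fa2h, Serpina3b and Mgst1, lie over 1 log2 unit apart.

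Known glucocorticoid receptor targets moved upward as a list. Of 32 tested genes, 8 were called higher and 0 lower, with a median log2 fold change of 0.77, against -0.00 over all 9343 genes. At an unadjusted p under 0.05, 17 were higher and 0 lower. The list was drawn up with earlier results of these arrays known, so its count describes them and is no independent evidence. Klf9, a zinc finger factor that restrains keratinocyte growth, had log2 signals of 11.66 and 11.75 in REDD1 KO FA and 10.86 and 10.40 in REDD1 KO vehicle epidermis (log2 fold change 1.08, SE 0.211, adjusted p = 0.024, limma). Errfi1, a feedback inhibitor of the EGF receptor, had 11.71 and 12.15 in REDD1 KO FA and 10.91 and 10.88 in REDD1 KO vehicle epidermis (1.03, adjusted p = 0.0252). Cdkn1c, the cell cycle inhibitor p57, had 6.84 and 6.18 in REDD1 KO FA and 5.10 and 4.99 in REDD1 KO vehicle epidermis (1.46, adjusted p = 0.0169). Both FA arrays exceeded both vehicle arrays in all of these genes.

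Mt1, a metallothionein that binds zinc and copper, rose by 1.23 (adjusted p = 0.0196) and Sgk1, a kinase that acts on sodium channels and FOXO factors, by 0.88 (adjusted p = 0.0311) in limma. Pdk4, which shuts off pyruvate oxidation and favors fat as fuel, had log2 signals of 8.87 and 8.89 in REDD1 KO FA and 5.76 and 6.58 in REDD1 KO vehicle epidermis, a log2 fold change of 2.71 (SE 0.513, adjusted p = 0.0213). It was called in 4 of the 8 fits without 1 array. Fkbp5, the receptor's own feedback chaperone, had 10.34 and 10.39 in REDD1 KO FA and 8.73 and 8.47 in REDD1 KO vehicle epidermis, groups that did not overlap, with a log2 fold change of 1.77 (SE 0.687, adjusted p = 0.198, limma). It was called with the 4 REDD1 KO arrays alone (adjusted p = 0.0129) and when either array of wild-type vehicle was left out (adjusted p = 0.0019 each). The wild-type vehicle arrays, which enter the shared error estimate, had 9.31 and 6.45. Fkbp5, Nr3c1 and Elovl3 are described although the fit to all 8 arrays did not call them. The receptor gene itself, Nr3c1, was near background throughout, with 4.50 and 4.39 in REDD1 KO FA and 5.01 and 4.62 in REDD1 KO vehicle epidermis (adjusted p = 0.462). Over the fits without 1 array, 2 (without vehicle array 2) to 13 (without either wild-type vehicle array) target genes were called higher, and 3 without FA array 1.

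Of 33 tested genes of insulin and mTOR signaling, 4 were called higher and 0 lower, while 2.24% of all tested genes were called higher. At an unadjusted p under 0.05 in limma, 9 were higher and 3 lower. Irs2, the insulin receptor substrate that feeds PI3K, had log2 signals of 9.72 and 9.90 in REDD1 KO FA and 7.47 and 7.85 in REDD1 KO vehicle epidermis, a log2 fold change of 2.15 (SE 0.293, adjusted p = 0.00535, limma). Itpkc, an inositol trisphosphate kinase, had 11.21 and 11.54 in REDD1 KO FA and 10.16 and 9.86 in REDD1 KO vehicle epidermis (1.36, adjusted p = 0.00535). The groups were separate in both genes, and both stayed called in every fit without 1 array. Eif4ebp1, the translation repressor that mTOR inactivates, rose by 0.83 (adjusted p = 0.0305), and Pik3ca, the catalytic subunit of PI3K, by 0.73 (adjusted p = 0.0354), each called in 2 of 8 such fits. The list count was 2 without FA array 1, without either vehicle array and without either wild-type FA array, and 3 without FA array 2. The list median was 0.18, and -0.000953 when arrays were centred on their medians. With that centring 2 genes of the list were called higher, and Eif4ebp1 and Pik3ca were not called.

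Of 14 tested atrogenes and FOXO factors, genes known from wasting muscle, 4 were called higher and 0 lower, with a list median of 0.51. Gabarapl1, which builds the autophagosome membrane, had log2 signals of 8.62 and 8.57 in REDD1 KO FA and 7.38 and 7.50 in REDD1 KO vehicle epidermis (log2 fold change 1.15, SE 0.176, adjusted p = 0.00852, limma). Fbxo31, a ubiquitin ligase subunit, had 7.65 and 7.99 in REDD1 KO FA and 6.69 and 6.80 in REDD1 KO vehicle epidermis (1.08, adjusted p = 0.0262). Map1lc3b, the autophagosome marker LC3B, rose by 0.81 (adjusted p = 0.0369). FA arrays were above vehicle arrays for all 3 genes. Gabarapl1 and Map1lc3b were also the only 2 called among 37 autophagy genes, whose median was 0.13, and none of the 4 atrogenes was called without vehicle array 1 or without vehicle array 2, 1 was without FA array 2, and 2 were without FA array 1 or without either wild-type FA array. Outside both lists, Depp1, a FOXO target linked to autophagy, had 8.72 and 8.11 in REDD1 KO FA and 6.34 and 5.82 in REDD1 KO vehicle epidermis (2.34, adjusted p = 0.0146). It is not 1 of the 4 called atrogenes.

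MHC class II antigen presentation had the lowest median of the 34 lists. Of 12 tested genes, 8 were called lower and 0 higher, with a median log2 fold change of -2.56, and 7 or 8 were called lower in each of the 8 fits without 1 array. Class II molecules are pairs of an alpha and a beta chain that display peptides from ingested protein to helper T cells, and in resting epidermis Langerhans cells carry most of them. The classical chains led the list. H2-Ab1, the beta chain of I-A, had log2 signals of 7.41 and 8.37 in REDD1 KO FA and 11.50 and 11.66 in REDD1 KO vehicle epidermis, a log2 fold change of -3.69 (SE 0.315, adjusted p = 0.000953, limma), and all 4 of its probes were called lower. H2-Eb1, the beta chain of I-E, had 7.18 and 8.24 in REDD1 KO FA and 10.99 and 11.01 in REDD1 KO vehicle epidermis (-3.29, adjusted p = 0.00157). H2-Aa, the alpha chain of I-A, had 7.88 and 8.86 in REDD1 KO FA and 11.15 and 11.22 in REDD1 KO vehicle epidermis (-2.81, adjusted p = 0.00168). All FA arrays lay more than 2 log2 units under all vehicle arrays, and FA array 1 was under FA array 2 by about 1 unit in each of the 3 genes, while the vehicle arrays were close.

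The loading machinery fell with the chains. Cd74, the invariant chain that guards the groove of new class II molecules, had log2 signals of 8.06 and 9.05 in REDD1 KO FA and 11.34 and 11.52 in REDD1 KO vehicle epidermis (log2 fold change -2.87, SE 0.306, adjusted p = 0.00202, limma), and its other probe gave -3.05. H2-DMb1 and H2-DMa, the 2 chains of the peptide exchanger DM, fell by 2.60 (adjusted p = 0.000279) and 2.56 (adjusted p = 0.00155). Ciita, the master coactivator without which class II genes are silent, had 4.19 and 4.54 in REDD1 KO FA and 6.77 and 7.08 in REDD1 KO vehicle epidermis. It was not above background on either FA array, which made it at least 4.81-fold lower (adjusted p = 0.000724). H2-Ob, a chain of the DM inhibitor DO, was also below background on both FA arrays, at least 1.34-fold lower (adjusted p = 0.0416), and this call held in 2 of 8 fits without 1 array. The 4 tested genes that were not called were H2-Oa, Ctss, Rfxap and Ifi30.

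In the promoters of class II genes, Ciita is recruited by factors that sit on conserved boxes just before the start site, the last of which is the Y box bound by NF-Y. Its core letters, GATTGG, were searched on both strands in windows of 250 bases before to 50 after each gene's start in the RefSeq table of build GRCm38.p6, where 16.1% of 32851 windows hold them. They were found for all 5 called genes that were searched and for 1 of 3 uncalled ones (H2-Oa). These counts are of genes with any matching window, whereas the 16.1% is of windows. H2-DMa matched in 1 of its 2 windows. H2-Ab1, Ciita and Rfxap were not matched in that table, and Cd74 was not searched because its chromosome was left out. Only 5 of the 8 called genes were thus searched. The stretches around the match in 4 called genes are shown so that its shared place close to the start can be read, 5′ to 3′ on the gene's own strand with the matched letters in capitals.
H2-Eb1 (chr17:34305762-34305827, + strand): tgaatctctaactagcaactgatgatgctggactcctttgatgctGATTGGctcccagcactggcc
H2-Aa (chr17:34287852-34287917, - strand): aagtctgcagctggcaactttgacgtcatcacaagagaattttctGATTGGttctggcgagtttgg
H2-DMb1 (chr17:34153084-34153149, + strand): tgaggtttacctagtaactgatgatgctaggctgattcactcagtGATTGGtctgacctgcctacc
H2-Ob (chr17:34238802-34238867, + strand): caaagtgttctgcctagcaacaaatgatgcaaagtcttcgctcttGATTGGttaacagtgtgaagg
Relative to the start, the match began at base -60 in H2-Eb1, -49 in H2-Aa, -62 in H2-DMb1 and -58 in H2-Ob. In H2-DMa it began at -199 of 1 of its 2 starts. A match describes the letters and shows no binding, and H2-Oa, which holds it too at -44, was not called.

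Interferon-induced genes fell as well, with 9 of 25 tested genes called lower, 0 higher and a median of -0.45. Irf1, a transcription factor switched on by interferon gamma, had log2 signals of 6.49 and 6.87 in REDD1 KO FA and 8.92 and 9.50 in REDD1 KO vehicle epidermis, a log2 fold change of -2.53 (SE 0.273, adjusted p = 0.00202, limma), and 2 of its 4 probes were called. Irgm2, Igtp, Gbp2 and Gbp2b, GTPases that attack the vacuoles of intracellular pathogens, fell by 1.60, 1.32, 1.22 and 1.09. Oasl2 and Oas1g of the antiviral oligoadenylate synthetase family and Isg15, a ubiquitin-like modifier, fell too. Oasl2 had 4.27 and 4.31 in REDD1 KO FA and 5.72 and 5.97 in REDD1 KO vehicle epidermis, not above background with FA and at least 2.26-fold lower (adjusted p = 0.00266). Usp18, which removes Isg15 from proteins, fell by 1.04 (adjusted p = 0.0484). Irf1 and Oasl2 were called in all 8 fits without 1 array, but the count for the list ranged from 3 (without vehicle array 2) to 9 and was 4 without FA array 1 and 4 without vehicle array 1. The list shares no gene with the class II list.

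MHC class I presentation had a list median of -0.17, but some of its genes fell clearly. Of 19 tested genes, 3 were called lower, 0 higher and 16 not called. Over all tested genes 2.65% were called lower. The 3 were H2-M2, a nonclassical class I gene, and the immunoproteasome subunits Psmb9 and Psmb10. H2-M2 had log2 signals of 8.60 and 9.30 in REDD1 KO FA and 11.40 and 11.38 in REDD1 KO vehicle epidermis (log2 fold change -2.44, SE 0.228, adjusted p = 0.00144, limma). Psmb10 had 6.81 and 7.13 in REDD1 KO FA and 8.27 and 8.31 in REDD1 KO vehicle epidermis (-1.32, adjusted p = 0.00358), and Psmb9 fell by 1.06 (adjusted p = 0.0196). FA and vehicle arrays did not overlap in any of them.

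Among 21 tested cytokines and chemokines, 4 were called lower and 1 higher. Il15, a cytokine that keeps epidermal T cells and natural killer cells alive, had log2 signals of 6.46 and 6.57 in REDD1 KO FA and 7.89 and 8.46 in REDD1 KO vehicle epidermis (log2 fold change -1.66, SE 0.202, adjusted p = 0.00332, limma). Il33, an alarm signal of keratinocyte nuclei, had 6.87 and 6.54 in REDD1 KO FA and 8.05 and 8.26 in REDD1 KO vehicle epidermis (-1.45, adjusted p = 0.0272). Cxcl9, a T cell attractant induced by interferon gamma, was below background on both FA arrays and at least 2.93-fold lower (adjusted p = 0.0216). Ccl4 was also below background with FA, at least 1.2-fold lower with an adjusted p of 0.0498, and Ccl27a, the skin's T cell attractant, rose by 0.68 (adjusted p = 0.0484). Neither Ccl4 nor Ccl27a was called in any fit without 1 array, whereas Il15 was called in all 8. The count of lower genes was 1 without either FA array.

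**Figure D3:**
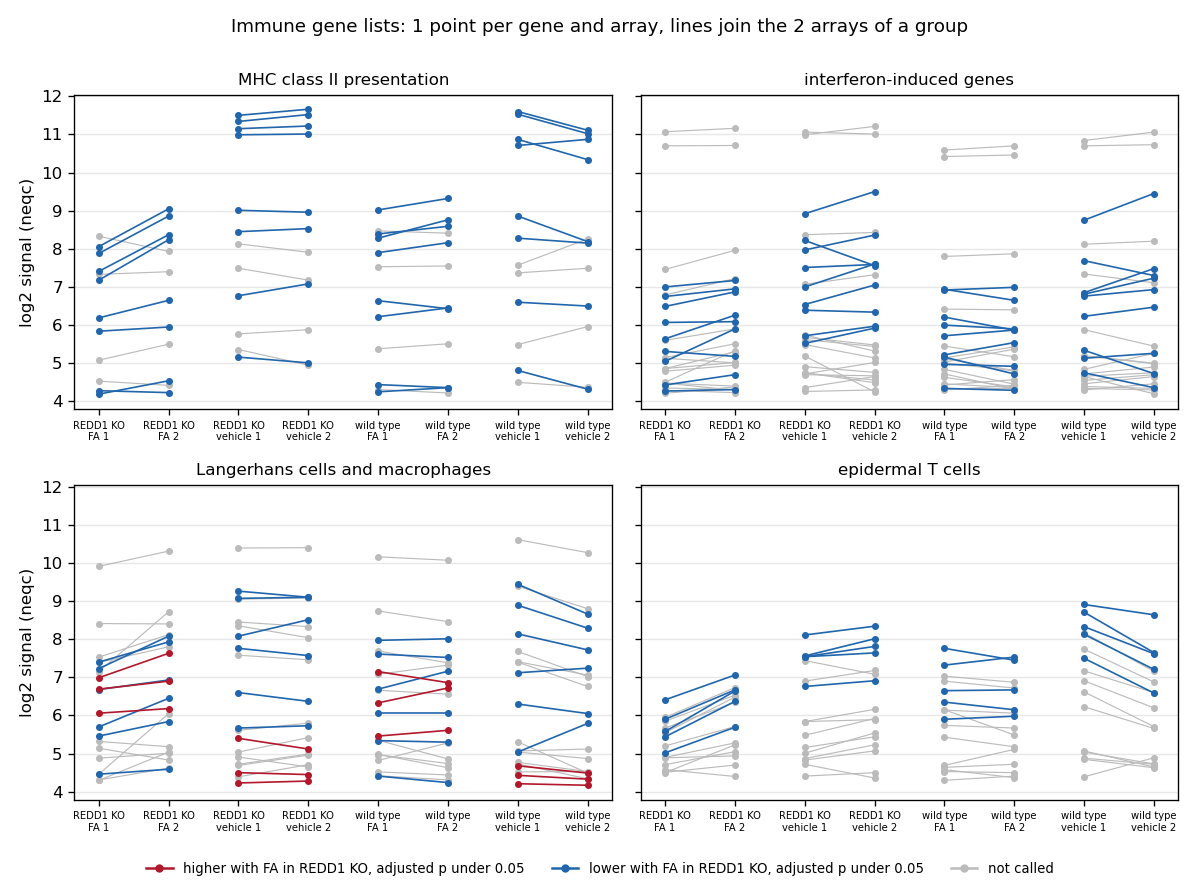
Log2 signals of the tested genes of 4 immune lists on all 8 arrays, 1 point per gene and array, with a line joining the 2 arrays of each group. Genes called lower with FA in REDD1 KO epidermis are blue, those called higher are red and the others grey. Most blue lines of the class II list lie lower with FA in both genotypes, and the 3 red lines, C1qa, C1qb and C1qc, run the other way.

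Markers of the leukocytes that live in the epidermis were split. Of 20 tested Langerhans cell and macrophage genes, 6 were called lower and 3 higher. Cd207, langerin, the protein of Birbeck granules that defines Langerhans cells, had log2 signals of 7.23 and 8.08 in REDD1 KO FA and 9.26 and 9.10 in REDD1 KO vehicle epidermis (log2 fold change -1.53, SE 0.307, adjusted p = 0.027, limma). Adgre1, the F4/80 antigen, had 5.70 and 6.45 in REDD1 KO FA and 7.76 and 7.57 in REDD1 KO vehicle epidermis (-1.58, adjusted p = 0.00746). Coro1a, Cd52 and Tyrobp, which many leukocytes share, fell by 1.42, 1.48 and 0.84, and Cd83, a marker of mature dendritic cells, was at least 2.05-fold lower. The FA arrays were below the vehicle arrays in all of them, and FA array 1 was below FA array 2 in 17 of the 20 genes. In bulk epidermis, fewer cells of a type and less RNA per cell cannot be told apart.

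The 3 that rose were the chains of C1q, the first component of complement, which macrophages make. C1qa had log2 signals of 6.69 and 6.90 in REDD1 KO FA and 5.40 and 5.12 in REDD1 KO vehicle epidermis (log2 fold change 1.54, SE 0.183, adjusted p = 0.00303, limma). C1qc had 6.06 and 6.18 in REDD1 KO FA and was below background in REDD1 KO vehicle epidermis at 4.23 and 4.28, at least 2.83-fold higher (adjusted p = 0.000779). C1qb, also below background with vehicle, was at least 6.47-fold higher (adjusted p = 0.000779). The 3 C1q chains stayed called when single arrays were left out. Most of the 6 lower calls were lost without FA array 1, without vehicle array 1 or without vehicle array 2. C1qb and C1qc were at background in the vehicle group, so leaving out an array says little of their spread. When a probe had to be detected on all 8 arrays, no gene of this list was called higher, against 5 called lower.

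T cell markers were called lower in 5 of 16 tested cases and higher in 0, with a median of -0.69. Cd3g and Cd3d, chains of the T cell receptor complex, had log2 signals of 5.44 and 6.37 and of 5.58 and 6.64 in REDD1 KO FA, against 7.54 and 7.64 and 7.54 and 7.81 in REDD1 KO vehicle epidermis. Their log2 fold changes were -1.68 (adjusted p = 0.0345, limma) and -1.56 (adjusted p = 0.0482). Itgae, the integrin CD103 that holds T cells to keratinocytes, fell by 1.50, Ctsw, a protease of cytotoxic cells, by 1.48, and Thy1, carried by dendritic epidermal T cells and by fibroblasts, by 1.49. FA array 1 was below FA array 2 in 15 of the 16 genes, with a median difference of -0.67. Without vehicle array 2 no gene of this list was called, 1 was called without FA array 1, and 1 without vehicle array 1.

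Lipid genes of the gland and the barrier fell. Of 31 tested genes of fatty acid synthesis and elongation, 6 were called lower and 1 higher, with a median of -0.58. Fa2h, which hydroxylates fatty acids for the ceramides of sebum and barrier, had log2 signals of 6.75 and 8.77 in REDD1 KO FA and 10.18 and 11.33 in REDD1 KO vehicle epidermis (log2 fold change -2.99, SE 0.605, adjusted p = 0.0276, limma). Alox12 and Alox12e, lipoxygenases of the epidermis, fell by 2.09 (adjusted p = 0.00106) and 2.18 (adjusted p = 0.0101). Alox12 had 6.77 and 6.88 in REDD1 KO FA and 9.10 and 8.72 in REDD1 KO vehicle epidermis. Acss2, which makes acetyl-CoA from acetate, had 6.62 and 6.62 in REDD1 KO FA and 7.80 and 8.73 in REDD1 KO vehicle epidermis (-1.65, adjusted p = 0.0115). Acsl3, a ligase that activates fatty acids for lipid droplets, rose by 1.11 (adjusted p = 0.0142). Alox12 and Acss2 were called in all 8 fits without 1 array and Fa2h in 3, and the count of lower genes ranged from 2 (without FA array 1 or without vehicle array 2) to 8 (without FA array 2).

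Sterol synthesis had 6 of 20 tested genes called lower and 0 called higher, with a median of -0.53. Mvd, the decarboxylase of the mevalonate pathway, had log2 signals of 6.21 and 6.21 in REDD1 KO FA and 7.38 and 7.98 in REDD1 KO vehicle epidermis (log2 fold change -1.47, SE 0.239, adjusted p = 0.0107, limma). Stard4, which carries cholesterol between membranes, had 8.33 and 8.02 in REDD1 KO FA and 9.43 and 9.31 in REDD1 KO vehicle epidermis (-1.19, adjusted p = 0.00796). Fdps, Sqle, Msmo1 and Nsdhl, 4 further enzymes on the way to cholesterol, fell by 0.84, 0.71, 0.88 and 0.65, with adjusted p of 0.0346 to 0.0473. Mvd and Stard4 were each called in 7 of 8 fits without 1 array. The count was 1 without either KO vehicle array, 3 without either KO FA array and 2 without either wild-type FA array.

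Fatty acid oxidation was mixed, with 4 of 30 tested genes lower and 1, Pdk4, higher. Acoxl, an acyl-CoA oxidase-like enzyme, had log2 signals of 4.39 and 5.71 in REDD1 KO FA and 7.49 and 8.50 in REDD1 KO vehicle epidermis (log2 fold change -2.95, SE 0.431, adjusted p = 0.00748, limma). Fabp5, the fatty acid binding protein of epidermis, had 6.28 and 6.76 in REDD1 KO FA and 7.45 and 8.62 in REDD1 KO vehicle epidermis (-1.51, adjusted p = 0.0484), but was called in 1 of 8 fits without 1 array. Acaa2 and Acads, mitochondrial enzymes of beta oxidation, fell by 0.90 and 0.78. The count of lower genes was 0 without vehicle array 2, 1 without FA array 1, 2 without FA array 2, 2 without either wild-type FA array and 1 with the muscle signal as a covariate. Pdk4 was not called without either FA array or without either vehicle array. Pnpla2, the lipase that opens stored triglyceride, was the 1 adipocyte gene of 11 that was called, with 10.55 and 10.76 in REDD1 KO FA and 9.02 and 9.45 in REDD1 KO vehicle epidermis (1.42, adjusted p = 0.00537). Among 34 sphingolipid genes, Smpd2, Degs1 and Gba2 rose by 1.42, 0.89 and 0.73, and Acer1, an alkaline ceramidase of the epidermis, fell by 1.10 (adjusted p = 0.00477) and stayed called in every fit without 1 array. The count of 3 higher sphingolipid genes was 0 without vehicle array 1 and 1 without vehicle array 2, either FA array or either wild-type FA array.

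Sebaceous gland markers were called lower in 4 of 21 tested genes and higher in 0, with a median of -0.81. Scd1, the desaturase of sebocytes, had log2 signals of 11.02 and 12.03 in REDD1 KO FA and 12.67 and 13.33 in REDD1 KO vehicle epidermis (log2 fold change -1.48, SE 0.34, adjusted p = 0.0453, limma). Krt79, a keratin of the duct, had 6.75 and 8.11 in REDD1 KO FA and 9.60 and 10.52 in REDD1 KO vehicle epidermis (-2.63, adjusted p = 0.0196). Mgst1, a membrane glutathione transferase, had 6.49 and 7.90 in REDD1 KO FA and 9.16 and 10.73 in REDD1 KO vehicle epidermis (-2.75, adjusted p = 0.039), but only 1 of its 2 probes was called. Fa2h was the fourth. The groups did not overlap, yet the arrays within a group differed: FA array 1 was below FA array 2 in 17 of 21 genes, and vehicle array 1 above vehicle array 2 in 2 of 21. The summed linear signal of the list was 12140 and 17510 on the FA arrays and 19010 and 31040 on the vehicle arrays. None of its genes was called with the 4 REDD1 KO arrays alone, with trended and robust moderation of the variances, or without a probe filter. Without FA array 1, or without vehicle array 2, no gene of the list was called, and how much gland each scraping held was not tested.

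**Figure D4:**
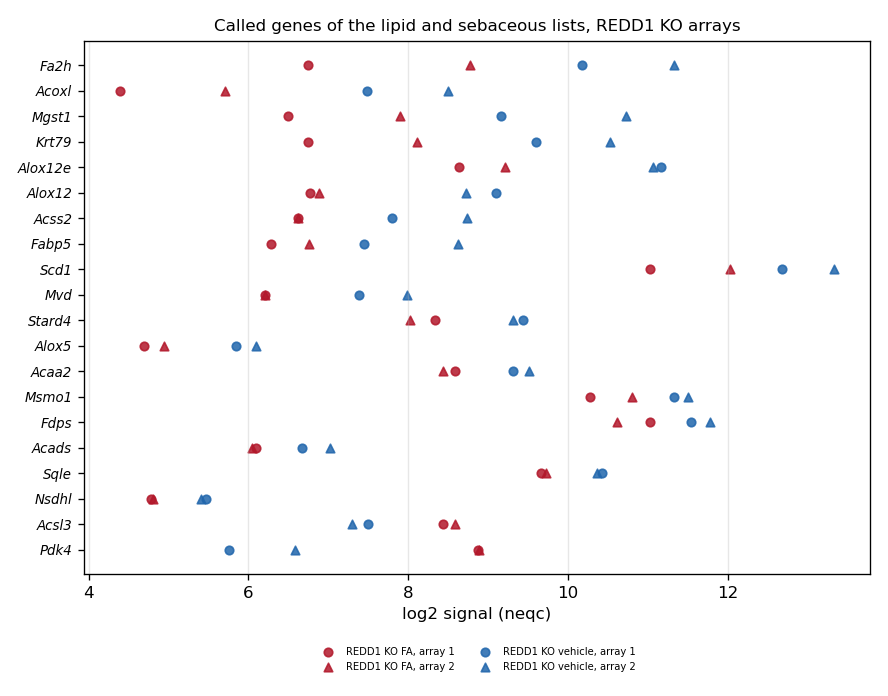
Log2 signals on the 4 REDD1 KO arrays of the called genes of the sebaceous, fatty acid synthesis, fatty acid oxidation and sterol lists, sorted from the largest fall at the top to the largest rise at the bottom, FA in red and vehicle in blue. The pairs of FA points are wide in Fa2h, Acoxl, Mgst1, Krt79 and Scd1 and narrow in Alox12, Acss2 and Mvd.

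Genes of DNA replication were lower, with 7 of 42 tested called, 0 called higher and a median of -0.47. Mcm5 and Mcm2, subunits of the helicase that opens replication origins, had log2 signals of 5.47 and 5.56 and of 4.72 and 4.67 in REDD1 KO FA, against 7.60 and 7.73 and 6.50 and 6.36 in REDD1 KO vehicle epidermis. Their log2 fold changes were -2.15 (SE 0.32, adjusted p = 0.00796, limma) and -1.73 (SE 0.339, adjusted p = 0.0241), and pairs of both groups were tight. Uhrf1, which copies DNA methylation to the new strand, fell by 2.65 (adjusted p = 0.00815), Rrm1, the large subunit of ribonucleotide reductase, by 1.09 and Mcm4 by 0.91. Tk1, thymidine kinase, was not above background with FA and at least 2.07-fold lower (adjusted p = 0.0476). Mcm5 and Uhrf1 were called in 7 of 8 fits without 1 array, but no gene of the list was called without vehicle array 2, and 2 were without FA array 1 or without vehicle array 1. Mitosis genes gave 1 call in 33, the histone H2az1 (-0.86, adjusted p = 0.0383), with a median of -0.42 and 30 of 33 genes negative. The vehicle arrays differed here, array 1 being above array 2 in 4 of 33 genes, with a median difference of -0.76, and the list median was -0.82 without vehicle array 1 and -0.10 without vehicle array 2.

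Cytosolic ribosomal protein genes shifted little but in 1 direction. Of 55 tested, 50 were negative and 42 had both FA arrays below both vehicle arrays, against 27.1% of all genes, with a list median of -0.34, while 1 gene, Rpl37a, was called (-0.70, adjusted p = 0.0477, limma) and lost that call in each fit without 1 array. At an unadjusted p under 0.05, 20 were lower and 0 higher. With trended and robust moderation of the variances 8 were called, and with median centring 0. Mitochondrial ribosomal proteins had a median of -0.15 and gave 0 calls in 68, with 9 lower and 3 higher at an unadjusted p under 0.05.

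Calls of keratinocyte genes are given beside the shares of all 9343 tested genes, 2.24% called higher and 2.65% called lower. A departure from these shares was not tested. No basal keratinocyte marker of 13 was called (limma gave 1 above and 1 below at unadjusted p under 0.05), with a median of 0.03. Of 60 terminal differentiation genes, 3 were higher and 2 lower with a median of 0.15. These counts were 1 and 1 without FA array 1, 1 and 0 without FA array 2, 0 and 0 without either vehicle array, and 2 and 0 without either wild-type FA array. The 2 called lower were Krt1 (log2 fold change -1.41) and Flg2 (-0.77), and Ivl was among those called higher (0.77). Klk11, a protease of the outer epidermis, rose by 0.72 (adjusted p = 0.0484), but it was called in no fit without 1 array. Krt17, a stress keratin, had log2 signals of 12.83 and 12.63 in REDD1 KO FA and 13.49 and 13.53 in REDD1 KO vehicle epidermis (log2 fold change -0.79, SE 0.162, adjusted p = 0.0296), while Defb14, a defensin of inflamed epidermis, had 10.71 and 10.43 in REDD1 KO FA and 9.02 and 9.78 in REDD1 KO vehicle epidermis (1.17, adjusted p = 0.0356). Klf2, the 1 called gene of 18 immediate early genes, had 7.48 and 7.45 in REDD1 KO FA and 5.41 and 5.78 in REDD1 KO vehicle epidermis (1.87, adjusted p = 0.0041) and stayed called in all 8 fits without 1 array. Nfil3, a clock output factor, was the 1 called gene of 14 in the clock list (1.41, adjusted p = 0.0206).

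Other genes among the 20 largest falls lay outside the lists above. Panx3, a channel protein related to gap junction proteins, had log2 signals of 4.91 and 6.06 in REDD1 KO FA and 8.54 and 9.62 in REDD1 KO vehicle epidermis, a log2 fold change of -3.59 (SE 0.429, adjusted p = 0.00303, limma). Ptn, the growth factor pleiotrophin, fell by 2.59 (SE 0.204, adjusted p = 0.000779). Mmp9, a gelatinase that cuts basement membrane collagen, had 6.58 and 6.59 in REDD1 KO FA and 8.94 and 8.83 in REDD1 KO vehicle epidermis (-2.30, adjusted p = 0.000953). Ffar2, a receptor for short chain fatty acids, had 4.86 and 5.58 in REDD1 KO FA and 7.81 and 7.80 in REDD1 KO vehicle epidermis (-2.59, adjusted p = 0.00106). These 4 genes were separate between groups and called in all 8 fits without 1 array. Vim, the intermediate filament of mesenchymal cells and leukocytes, had 5.20 and 5.38 in REDD1 KO FA and 6.83 and 6.57 in REDD1 KO vehicle epidermis (-1.41, adjusted p = 0.00409), and Hba-a1, a globin of red blood cells, fell by 1.96 (adjusted p = 0.0152), and the part of these other cell types was not tested.

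Set beside wild type, the probes called in KO ran largely the same way. Of the 285 higher probes, 267 were also above 0 with FA in wild-type epidermis and 130 were called higher there, and of the 307 lower probes, 285 were below 0 and 156 were called lower. Over all 9343 tested genes the median wild-type log2 fold change was -0.03. The reverse count, of wild-type calls followed in KO, is not given here. No array enters both effects, but both rest on 1 error estimate. In wild type, 307 of 9343 genes were called higher (3.29%) and 341 lower (3.65%). The test of the difference itself called 4 of 13131 probes (0.0305%) and, with 1 probe per gene, 3 of 9343 genes (0.0321%). The 4 probes were those of Acot5, Defb8, Mgll and Mpo, all with a lower FA effect in KO. For Acot5, Defb8 and Mpo the KO arrays lay near background, as described further below. At an unadjusted p under 0.05, 600 probes had a higher and 702 a lower FA effect in KO. A gene called in KO and not in wild type is therefore not shown to differ unless its own difference passed.

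Some genes with large changes in KO had a wide gap to wild type that the test did not call. Panx3 had a log2 fold change of -3.59 in KO and -0.43 in wild type, a difference of -3.17 (SE 0.606, adjusted p = 0.287, limma). Fa2h had -2.99 in KO and 0.24 in wild type (difference -3.23, SE 0.856, adjusted p = 0.35), and Acoxl had -2.95 in KO and 0.02 in wild type (difference -2.96, SE 0.61, adjusted p = 0.308). Elovl3, an elongase of sebaceous glands, had log2 signals of 4.46 and 5.16 in REDD1 KO FA and 5.62 and 7.01 in REDD1 KO vehicle epidermis, and 8.78 and 9.49 in wild-type FA and 6.86 and 6.38 in wild-type vehicle epidermis. Its difference of -4.02 (SE 0.623) had an adjusted p of 0.185. Upward, Vamp1 rose by 2.30 in KO against 0.18 in wild type (difference 2.12, SE 0.403, adjusted p = 0.287) and Lims2 by 2.43 against 0.71 (difference 1.71, SE 0.351, adjusted p = 0.308). None of these 6 differences passed the threshold. By list, the sebaceous median was -0.81 in KO and 0.40 in wild type, that of fatty acid synthesis -0.58 and -0.11, that of DNA replication -0.47 and -0.72, that of class II presentation -2.56 and -1.92, and that of glucocorticoid receptor targets 0.77 and 0.86. These medians are descriptions, and their differences were not tested as sets.

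**Figure D5:**
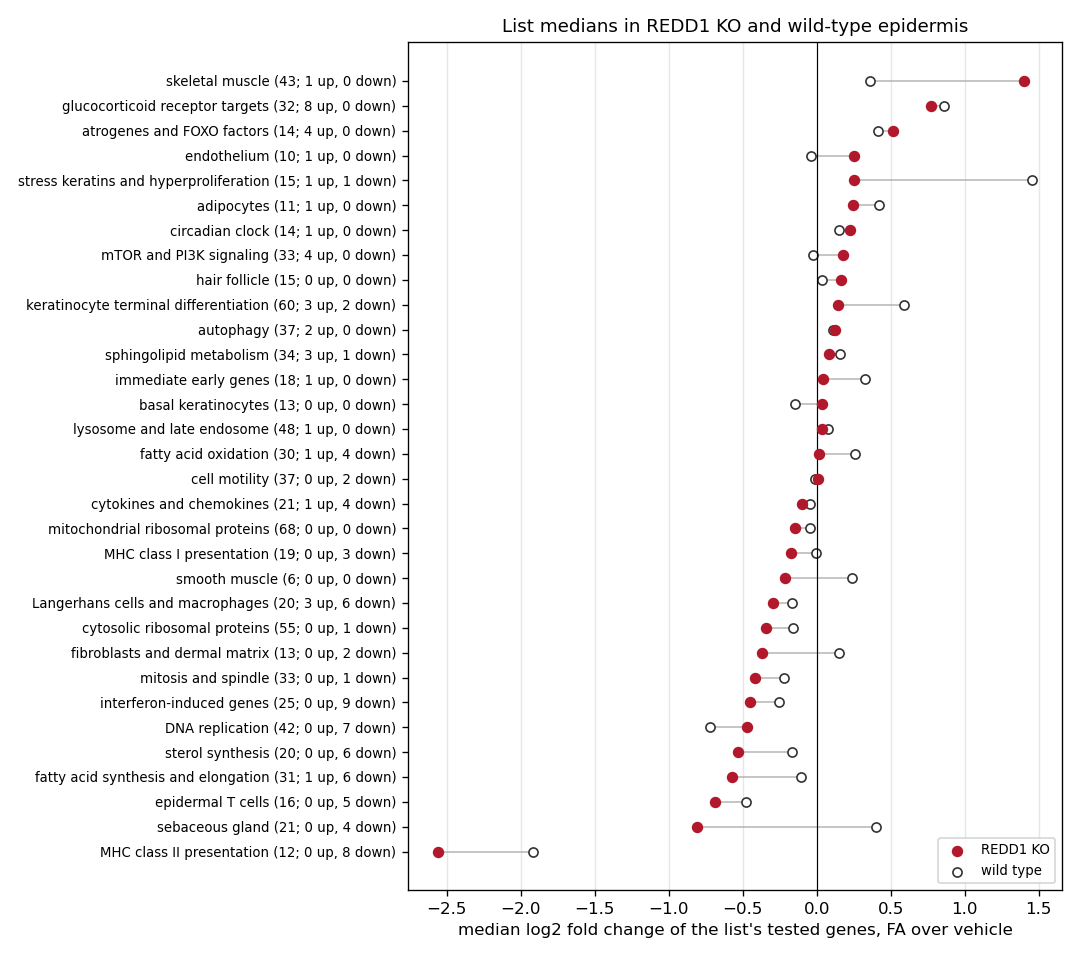
Median log2 fold change with FA of each list with at least 6 tested genes, REDD1 KO as filled red points and wild type as open points, joined by a line. In brackets stand the number of tested genes and how many were called higher and lower in REDD1 KO. Class II presentation lies lowest in both genotypes, and the sebaceous, stress keratin and muscle lists show the longest lines.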

How the data were processed

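RNA from 8 epidermal samples was hybridized to Illumina MouseRef-8 v2.0 BeadChips, 1 sample per array and 2 per group. The deposited scanner tables give the mean intensity of each probe as the authors exported it, without background correction, and the deposited detection p-values compare each probe with negative controls; no source used here names the export software or its settings. The deposited log2 values were made by the authors with limma, and a rebuild with neqc and an offset of 16 differed from them by at most 5e-09. Types of control lines are not named, so 798 of 832 were worked out to be negative controls by this rebuild, and 2 broken lines were left out.

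The log2 values were used as deposited. Probes with a detection p under 0.05 on at least 2 of 8 arrays were kept (13131 of 25697). Of all probes, 23978 carried 1 gene symbol in the platform annotation, 0 several and 1719 none; 23962 symbols were updated by gene identifier and 9 by accession, and 7 were kept. lmFit and eBayes of limma 3.58.1 (R 4.3.3) fitted 1 mean per group over all 8 arrays (4 residual and 5.08 prior degrees of freedom), and p-values were adjusted by Benjamini-Hochberg over all probes of a contrast, with a threshold of 0.05. Lists used 1 probe per gene, that of the highest mean signal. A gene not above background on both arrays of a group is given as a bound: the bright group's mean against the mean of, per array, the higher of the gene's own signal and the lowest signal among detected probes. The scripts were tested on simulated data. Figures were drawn with matplotlib 3.10.9 (Python 3.11.15).

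Genes named include the 20 largest rises and 20 largest falls among called probes whose FA and vehicle arrays do not overlap. Others were drawn from called members of lists and, where a list had few calls, up to 4 of its brightest members. The 10 brightest muscle genes, called differences between genotypes, Ddit4, Nr3c1 and the genes the study measured by Q-PCR were drawn on too. Not every gene drawn on in this way is named here. The members and lists were chosen with earlier results of these data known. The number of arrays, 2 per group, limits the precision. Alternatives changed the offset, the background correction, the normalization, the probe filter, the arrays in the fit, the error model and the muscle signal as a covariate.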

Additional observations from a re-analysis of the deposited data

Results flagged for a closer look

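4 genes were set apart because the test of the difference between the FA effects of the genotypes called a probe of each. Of 3 Mgll probes, 1 was called, and since it is not the brightest, 3 of the 4 genes were called with 1 probe per gene. The called probe of Mgll, the lipase of monoglycerides, had log2 signals of 4.79 and 5.19 in REDD1 KO FA and 6.25 and 6.69 in REDD1 KO vehicle epidermis, and 8.30 and 9.10 in wild-type FA and 6.93 and 6.75 in wild-type vehicle epidermis, a difference of -3.34 (SE 0.393, adjusted p = 0.0419, limma). The other Mgll probes had differences of -3.15 (adjusted p = 0.344) and -2.50 (adjusted p = 0.37). Defb8, a defensin, was at background on all 4 KO arrays and on the wild-type vehicle arrays, and had 9.70 and 8.74 in wild-type FA epidermis, which was at least 24-fold above wild-type vehicle epidermis. It passed the detection filter through these FA arrays, and its fitted difference of -4.87 (adjusted p = 0.00485) rests on groups at background and is no bound. Acot5, an acyl-CoA thioesterase, had 4.69 and 4.89 in REDD1 KO FA and 4.36 and 4.61 in REDD1 KO vehicle epidermis, and 7.30 and 7.17 in wild-type FA epidermis, at least 6.07-fold above wild-type vehicle epidermis, which was at background (fitted difference -2.43, adjusted p = 0.0139). Mpo, myeloperoxidase, had 4.80 and 4.71 in REDD1 KO FA and 4.36 and 4.69 in REDD1 KO vehicle epidermis, and 7.24 and 7.64 in wild-type FA and 4.63 and 4.53 in wild-type vehicle epidermis (difference -2.63, SE 0.267, adjusted p = 0.0162). Its other 2 probes, near background, had differences of -0.94 (adjusted p = 0.35) and -0.02 (adjusted p = 0.982). Neither Acot5 nor Mpo was detected on all 8 arrays, and both were clearly high only in wild-type FA epidermis. Their fitted differences, like that of Defb8, thus rest on groups near background. What lies behind these 4 differences was not tested. Leaving out 1 array in turn moved their adjusted p to 0.0105 to 0.279 for Mgll, 0.0133 to 0.118 for Mpo, 0.0219 to 0.118 for Acot5 and 0.000348 to 0.0516 for Defb8. None of the 4 was called without REDD1 KO vehicle array 2.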

How the results depend on the processing

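Of the 592 called probes, 164 to 556 stayed called under the alternatives (all 479 that were tested when a probe had to be detected on all 8 arrays). Their sign could not turn in fits without 1 array, since their groups do not overlap. In fits without 1 array the number of higher probes ranged from 92 to 311, that of lower probes from 86 to 338 and that of probes with a different FA effect between genotypes from 0 to 31. Median centring gave 169 higher and 404 lower probes, no probe filter 194 higher and 169 lower, and the 4 REDD1 KO arrays alone 160 higher and 150 lower. The difference between genotypes, 4 probes, came to 1 with an offset of 50, 0 without background correction, 0 without a probe filter, 0 for probes detected on all 8 arrays and 8 with trended and robust moderation. The replicate block gave 271 higher, 285 lower and 4 different probes, and 17 of the 124 named calls were lost under it. Replicate numbers come from the sample titles, and no source describes a pairing. The deviations of same-numbered REDD1 KO FA and REDD1 KO vehicle arrays correlated at 0.252, and other pairs of groups at -0.107 to 0.229. Calls of named genes depended most on REDD1 KO vehicle array 2, without which 75 of 124 were lost, and no called gene reversed. With the muscle signal as a covariate, 411 of the 592 probes and 93 of the 124 named calls remained, and the genes called lower numbered 2 for T cells (5 without it), 3 for sterol synthesis (6) and 1 for fatty acid oxidation (4). Uncalled muscle genes reversed: with this covariate, the log2 fold change was -1.166 for Acta1, -1.999 for Myl1 and -1.38 for Pvalb, and without 1 array it ranged from -1.896 to 4.94 for Acta1, -2.904 to 4.855 for Myl1 and -2.215 to 5.714 for Pvalb, lowest without REDD1 KO FA array 1. Defb8, at background in KO, moved to 0.02782 with median centring and between -0.01176 and 0.01104 without 1 array. The cause of these changes was not tested. The chip could not be used as a block, since no source names chips. With 2 arrays per group and a median array intensity close to the negative controls, small changes of dim genes may have been missed.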
